A study of Mus musculus with 9 samples.

Results

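Basal and suprabasal keratins of the epidermis were followed in skin of mice that lacked SPT6 in their keratinocytes. The 10 genes were chosen by name, as the keratins that mark the basal layer (*Krt5*, *Krt14* and *Krt15*) and the layers above it (*Krt1*, *Krt10*, *Krt2*, *Krt77*, *Krt78*, *Krt79* and *Krt80*). They are 10 of the 17943 genes in the count table and 10 of the 53 keratin genes with a row there, and all 10 passed the filter on low counts.

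Bulk RNA-Seq covered skin from 4 *Supt6*-KO mice and 5 controls, taken at day 10 after the final injection. According to the study's methods, controls were *Supt6* fl/fl mice given corn oil, and *Supt6*-KO mice were K14-CreERT; *Supt6* fl/fl mice given tamoxifen, so the groups differ in both the transgene and the drug. The Cre is driven by a *Krt14* promoter, which confines recombination to *Krt14*-expressing epithelium. The sample labels call the controls wild type and the tissue ear, whereas the study's text gives dorsal skin, and neither source was preferred here. Depth was even, from 29627341 to 30491197 counts in control mice and from 30597189 to 30967107 in *Supt6*-KO mice. The p-values measure the spread between these mice.

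Keratins are the intermediate filament proteins of epithelial cells, and each filament pairs a type I keratin with a type II keratin. Basal keratinocytes build theirs from the type II keratin KRT5 with the type I keratins KRT14 and KRT15, and on leaving the basal layer they switch to KRT1 and KRT10, with KRT2 added in the upper spinous and granular layers of body sites such as the mouse ear, tail and sole. Injured or inflamed epidermis adds KRT6, KRT16 and KRT17. In bulk skin, fewer cells of a layer and less RNA per cell cannot be told apart.

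*Supt6* itself, which encodes the histone chaperone and elongation factor SPT6, was read at 74.5, 56.6, 63.6, 91.1 and 96.7 CPM (counts scaled to library size by trimmed mean of M values, TMM) in control mice 1 to 5. It was read at 28.6, 24.1, 21.9 and 28.4 CPM in *Supt6*-KO mice 1 to 4. Every *Supt6*-KO mouse lay below every control mouse, and the log2 fold change was -1.57 ± 0.18 (SE; edgeR's quasi-likelihood test, adjusted p = 1.3e-05). This gene served as the check on the labels.

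Of the 10 keratins, 1 was higher (*Krt1*) and 6 were lower (*Krt5*, *Krt15*, *Krt2*, *Krt77*, *Krt79* and *Krt80*) in *Supt6*-KO skin at an adjusted p under 0.05, while *Krt14*, *Krt10* and *Krt78* did not pass. Across the 16426 genes tested, 34.1% were called higher and 36.8% lower, so that a call by itself was common. TMM factors ran from 1.198 to 1.315 in control mice and from 0.674 to 0.91 in *Supt6*-KO mice. At the same depth, a given count therefore stood for a higher CPM in *Supt6*-KO mice. Scaled by library totals instead of TMM, 2771 genes were higher and 8970 lower, and 1 keratin was higher and 8 lower. Requiring a 2-fold difference as well left 1 keratin higher and 5 lower, against 20.9% and 24.9% of all genes. The groups did not overlap for 1 keratin above (28.9% of all genes) and 6 below (31.8% of all genes). The median log2 fold change was -1.13 over the 10 keratins and -0.07 over all genes.

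**Figure D1:**
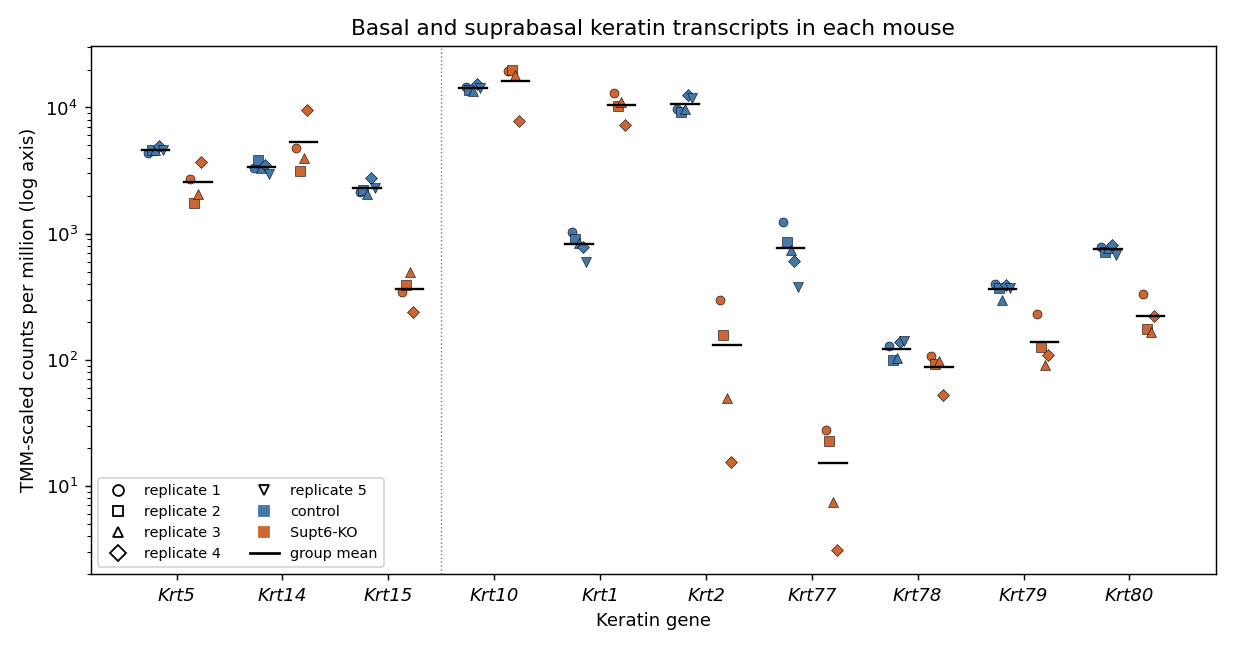
TMM-scaled CPM (log axis) of the 10 keratins in each of 5 control (blue) and 4 *Supt6*-KO (orange) mice, with symbols for replicate numbers and black lines for group means; the dotted line parts basal from suprabasal keratins. *Krt1* lies between 599 and 1028 CPM in control mice and between 7264 and 13102 CPM in *Supt6*-KO mice, and *Krt2* shows the opposite order.

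*Krt2* and *Krt77* fell furthest and are shown first with the DNA just before their start sites. The lines below give the 120 bases upstream of a start site listed by RefSeq on GRCm38.p6, 5′ to 3′ on the minus strand, for both genes and for *Krt10*, the type I partner of the suprabasal type II keratins. The start is that of 1 transcript, and the RefSeq gene spans of *Krt2* and *Krt10* reach further upstream and hold the window. Capitals mark TATATA, a run of letters of the TATA type.
Krt2, chr15:101818170-101818289: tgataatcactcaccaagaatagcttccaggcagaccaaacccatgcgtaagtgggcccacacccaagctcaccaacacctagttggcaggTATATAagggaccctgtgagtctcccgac
Krt77, chr15:101869706-101869825: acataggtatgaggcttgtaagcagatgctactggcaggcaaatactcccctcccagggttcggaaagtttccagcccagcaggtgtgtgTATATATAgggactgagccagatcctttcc
Krt10, chr11:99389365-99389484: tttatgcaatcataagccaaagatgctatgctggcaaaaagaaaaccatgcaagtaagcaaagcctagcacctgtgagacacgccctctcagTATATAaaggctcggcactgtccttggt
The run began 29 bases before the start in *Krt2*, 28 in *Krt10*, and 30 and, overlapping, 28 in *Krt77*. It was present in these 3 of the 7 keratins with a promoter entry and in 2.5% of all 32851 promoter windows of this length, searched on both strands, on which it reads the same. Of the 3 genes with this run, *Krt2* and *Krt77* fell and *Krt10* did not pass. The letters were chosen after the sequences were seen, and a match is no evidence of use. Only TATATA was searched for, so other AT-rich runs, such as ATAAAA in the windows of *Krt5* and *Krt78*, were not counted.

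In control skin, *Krt2*, the keratin of the uppermost living layers, was among the most abundant transcripts, at 9692, 9170.2, 9799.5, 12471 and 11879 CPM in mice 1 to 5. In *Supt6*-KO mice 1 to 4 it was read at 296, 158, 49.9 and 15.3 CPM. No value came near the control range, and the *Supt6*-KO mice themselves spread 19.3-fold, with mouse 1 highest and mouse 4 lowest. The mean was 10602 ± 1470.1 CPM in control mice (SD, n = 5) and 129.9 ± 126.3 CPM in *Supt6*-KO mice (SD, n = 4), an 81.6-fold fall, and the log2 fold change was -6.35 ± 0.80 (SE; edgeR, adjusted p = 3e-05). Without *Supt6*-KO mouse 1 it was -7.15. Per kilobase of transcript, *Krt2* ranked 3rd of 16369 genes in control skin and 1874th in *Supt6*-KO skin.

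*Krt77*, a type II keratin of suprabasal epidermis and of sweat gland ducts, stood at 1229, 858, 739.9, 609 and 379.9 CPM in control mice 1 to 5. It stood at 27.6, 22.6, 7.50 and 3.09 CPM in *Supt6*-KO mice 1 to 4. The order of the 4 *Supt6*-KO mice was that of *Krt2*, and control mice also differed among themselves by 3.24-fold. The log2 fold change was -5.65 ± 0.67 (SE; edgeR, adjusted p = 1.8e-05), a 50.3-fold fall of the mean. The lowest library held 86 counts of *Krt77* and 427 of *Krt2*, well above a floor of 3 counts. *Krt24*, a type I keratin outside the 10, followed the same order, at 11.3, 4.37, 1.69 and 0.79 CPM in *Supt6*-KO mice 1 to 4 against 179 to 273 CPM in control mice.

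*Krt1*, the type II keratin of the spinous layer, was the only one of the 10 called higher by edgeR with TMM scaling of all 9 mice. Control mice 1 to 5 held 1028, 908, 849.8, 779 and 599 CPM. *Supt6*-KO mice 1 to 4 held 13102, 10209, 11120.0 and 7264 CPM, so the lowest of them, mouse 4, stood above the highest control. The mean rose 12.5-fold and the log2 fold change was 3.65 ± 0.24 (SE; edgeR, adjusted p = 5.3e-07).

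*Krt10*, its type I partner, was the most abundant transcript per kilobase in control skin, at 6849.7 ± 348.5 CPM per kilobase (SD, n = 5). Its levels were 14442, 13788, 13622, 15479 and 14386 CPM in control mice 1 to 5 and 19562, 19847, 18223 and 7775 CPM in *Supt6*-KO mice 1 to 4. The first 3 *Supt6*-KO mice lay above all controls and mouse 4 below all of them. The log2 fold change was 0.19 ± 0.28 (SE; edgeR, adjusted p = 0.56). Without *Supt6*-KO mouse 4 it was 0.42 and passed (edgeR, adjusted p = 0.049), and with library totals in place of TMM it was -0.55 and passed in the other direction (edgeR, adjusted p = 0.036).

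Among the remaining suprabasal type II keratins, *Krt80*, which is found at desmosomes near the cell margin, fell from 679 to 808 CPM in control mice to 331, 176, 166 and 223 CPM in *Supt6*-KO mice 1 to 4. Its log2 fold change was -1.74 ± 0.21 (SE; edgeR, adjusted p = 2e-05). *Krt79*, a marker of the hair follicle infundibulum and sebaceous duct, fell from 296 to 402 CPM to 230.0, 126.4, 91.2 and 108 CPM, with a log2 fold change of -1.40 ± 0.25 (SE; edgeR, adjusted p = 0.00038). The groups did not overlap for either gene, and mouse 1 was the highest *Supt6*-KO mouse in both. *Krt78*, the least abundant of the 10 per kilobase in control skin, ran from 99.6 to 142 CPM in control mice and read 108, 92.8, 97.8 and 52.1 CPM in *Supt6*-KO mice. These groups overlapped, and the log2 fold change of -0.48 ± 0.20 did not pass (SE; edgeR, adjusted p = 0.052), although it did under 6 of 18 alternative settings.

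The basal keratins moved apart. *Krt5*, the type II keratin of the basal layer, was read at 4376, 4604, 4607, 4941 and 4628 CPM in control mice 1 to 5 and at 2703, 1757, 2045 and 3669 CPM in *Supt6*-KO mice 1 to 4. The groups did not overlap, mouse 4 came closest to the controls, and the log2 fold change was -0.86 ± 0.23 (SE; edgeR, adjusted p = 0.0048). *Krt15*, a type I keratin of basal cells and of follicle stem cells, fell from 2139, 2226, 2074, 2759 and 2318 CPM to 344, 390.5, 495 and 239 CPM. The *Krt15* groups lay far apart, with a log2 fold change of -2.65 ± 0.23 (SE; edgeR, adjusted p = 2.2e-06).

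*Krt14*, the main type I partner of KRT5, did not follow either of them. It was read at 3312, 3809, 3318, 3483 and 2972 CPM in control mice and at 4730.3, 3114, 3962 and 9613 CPM in *Supt6*-KO mice 1 to 4. Mouse 4 stood far above the rest and mouse 2 within the control range, and the log2 fold change was 0.66 ± 0.30 (SE; edgeR, adjusted p = 0.063). Without mouse 4 it was 0.21 (edgeR, adjusted p = 0.27), and without mouse 2 it was 0.84 (edgeR, adjusted p = 0.021). With DESeq2 it was 0.72 and passed (DESeq2, adjusted p = 0.015). With library totals in place of TMM it was 0.05 (edgeR, adjusted p = 0.91). Removing the length trend gave 0.21 (edgeR, adjusted p = 0.55), and a block on replicate number gave 0.48 (edgeR, adjusted p = 0.16). *Krt14* shares 2.88% of its 100-base stretches with *Krt16*, and *Krt5* shares 2.38% with *Krt6a*, whereas the other 8 keratins share none with any other gene's transcripts.

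Ratios within a mouse do not depend on how libraries are scaled. The count ratio of *Krt1* to *Krt10* was 0.0712, 0.0659, 0.0624, 0.0503 and 0.0416 in control mice 1 to 5 and 0.670, 0.514, 0.610 and 0.934 in *Supt6*-KO mice 1 to 4. All 4 *Supt6*-KO mice thus lay above all controls, mouse 4 included, although both of its counts were the lowest of the group on the CPM scale. The mean difference was 3.54 on the log2 scale (two-sided exact permutation test, p = 0.00794, the smallest it can give, and 0.00926 after Benjamini-Hochberg adjustment over 7 ratios). As a difference in medians it was 3.36 and did not pass (exact permutation test, adjusted p = 0.074).

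In 5 of the other 6 ratios the groups were likewise apart. The *Krt5* to *Krt14* ratio ran from 1.21 to 1.56 in control mice and from 0.382 to 0.571 in *Supt6*-KO mice, a log2 difference of -1.45. That of *Krt15* to *Krt14* fell by 3.22 on the log2 scale, that of *Krt2* to *Krt10* fell by 7.18, and that of *Krt1* to *Krt5* rose by 4.56. The widest difference was that of *Krt1* to *Krt2*, at 10.72 on the log2 scale (10.11 without *Supt6*-KO mouse 4 and 11.25 without mouse 1). This ratio ran from 0.0504 to 0.106 in control mice and was 44.3, 64.4, 223 and 474 in *Supt6*-KO mice 1 to 4. All 5 had the same exact permutation p of 0.00794 (adjusted 0.00926), but as a difference in medians *Krt1* to *Krt5* did not pass (exact permutation test, adjusted p = 0.067). The exception was *Krt10* to *Krt14*, which was 4.14, 6.37, 4.60 and 0.809 in *Supt6*-KO mice 1 to 4 against 3.62 to 4.84 in control mice (log2 difference -0.44, exact permutation p = 0.722). Without *Supt6*-KO mouse 4 the log2 difference of *Krt10* to *Krt14* was 0.22, and as a difference in medians it was 0.0. These ratios come from the mice used above and restate those differences on a scale-free footing. For *Krt1* to *Krt2* and *Krt1* to *Krt5*, full separation was fixed in advance. *Krt1* lay above all controls and the other gene below them in every *Supt6*-KO mouse. The p-values of the ratios are thus no evidence beyond the calls per gene.

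**Figure D2:**
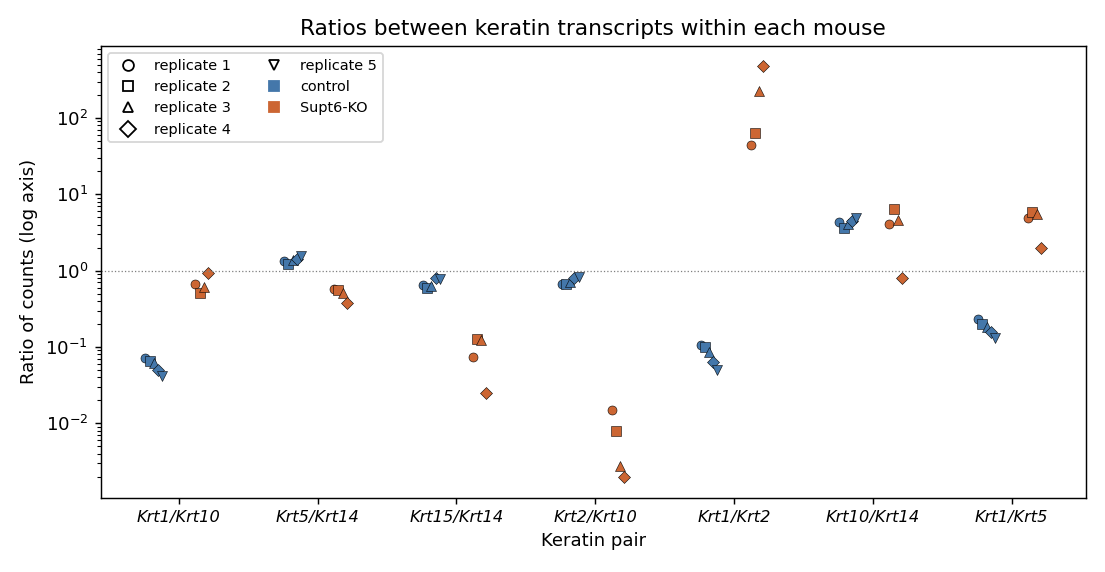
Ratio of estimated counts (log axis) between 7 pairs of keratins in each control (blue) and *Supt6*-KO (orange) mouse, with symbols for replicate numbers; the dotted line marks a ratio of 1. The groups are apart in 6 pairs and overlap for *Krt10* to *Krt14*, where *Supt6*-KO mouse 4 lies at 0.809.

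Together the 10 keratins took 4.38% to 5.19% of all counts in control mice and 2.42% to 3.235% in *Supt6*-KO mice. On the TMM scale the groups overlapped, with a summed 36177 to 41860 CPM in control mice and 41434, 35893, 36257 and 28962 CPM in *Supt6*-KO mice 1 to 4. Dividing counts by transcript length gives the make-up of this pool. *Krt10* gave 39.5% ± 0.6 (SD, n = 5) of the pool in control mice, *Krt2* 23.3% ± 2.2, *Krt5* 12.2% ± 0.4, *Krt14* 11.5% ± 1.2 and *Krt15* 7.78% ± 0.47. *Krt1* gave 1.96% ± 0.42 there. In *Supt6*-KO mice *Krt1* gave 25.0% ± 3.1 (SD, n = 4) and *Krt2* 0.276% ± 0.250, so that these type II keratins had changed places. *Krt10* gave 48.5%, 56.8%, 51.4% and 26.0% of the pool in *Supt6*-KO mice 1 to 4, and *Krt14* 14.5%, 10.98%, 13.8% and 39.7%. Mouse 4 thus had a pool rich in *Krt14* and poor in *Krt10*, unlike the other 3.

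The balance of type II to type I transcripts in the pool was 0.690, 0.657, 0.704, 0.721 and 0.743 in control mice 1 to 5 and 0.561, 0.447, 0.494 and 0.5002 in *Supt6*-KO mice 1 to 4. The *Supt6*-KO values were all below the control values. With the stress keratins *Krt6a*, *Krt6b*, *Krt16* and *Krt17* counted in, mouse 4 rose to 0.708 and entered the control range of 0.651 to 0.738, while the other 3 stayed between 0.453 and 0.568. The ratio of suprabasal to basal transcripts was 1.97 to 2.33 in control mice, 3.56, 4.83 and 3.76 in *Supt6*-KO mice 1 to 3, and 0.910 in mouse 4.

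**Figure D3:**
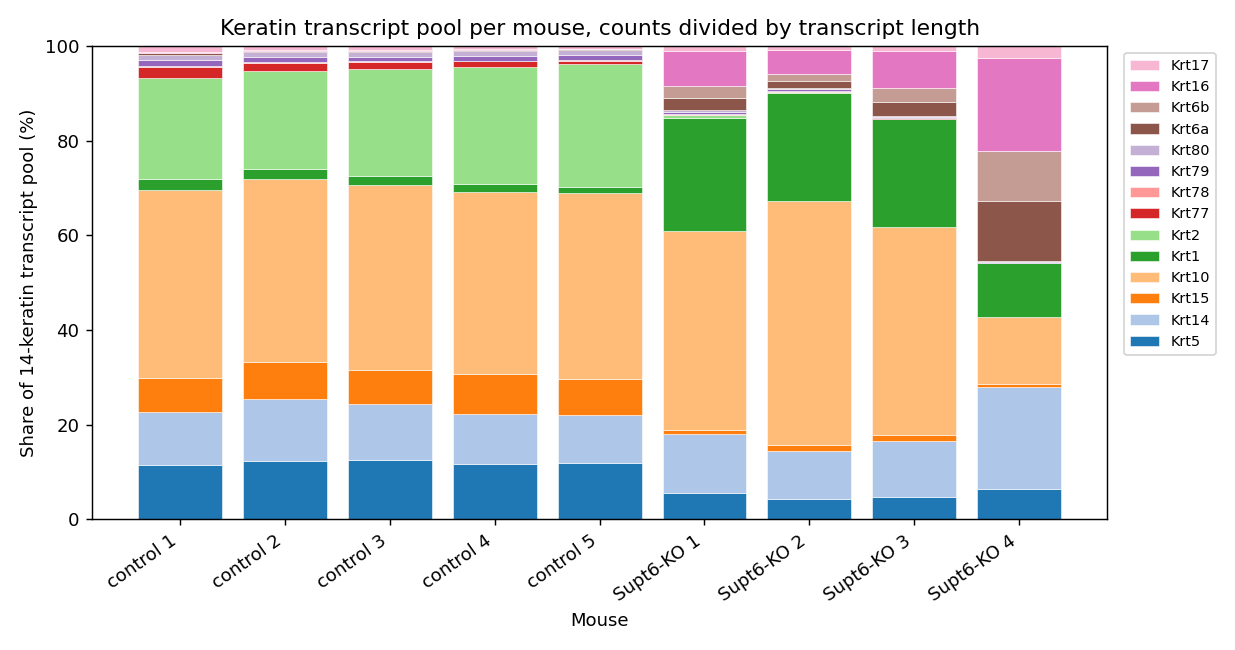
Share (%) of each of 14 keratins in their summed counts per transcript length, one bar per mouse, with the 10 epidermal keratins at the bottom and the stress keratins on top. *Krt2* fills 20.6% to 25.9% of the control bars and at most 0.508% of the *Supt6*-KO bars, and the stress keratins fill 45.5% of the bar of *Supt6*-KO mouse 4.

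The stress keratins were the companions of these changes. All 4 passed as higher, by 4.70 (*Krt6a*), 8.18 (*Krt6b*), 7.23 (*Krt16*) and 1.04 (*Krt17*) on the log2 scale, with a list median of 5.96. The groups overlapped for *Krt17*, whose highest value was that of *Supt6*-KO mouse 4, and 3 of the 4 passed when libraries were scaled by their totals. Their summed level was 274 to 564 CPM in control mice and 5513, 2949, 5377 and 22838 CPM in *Supt6*-KO mice 1 to 4. Mouse 4, with the lowest *Krt10* and highest *Krt14*, had the highest level of each of the 4. *Krt6a* and *Krt6b* have many 100-base stretches in common (30.1% of those of *Krt6b*), so the split between this pair is uncertain.

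The genes of the 10 keratins lie in the 2 keratin clusters of the mouse genome, *Krt10*, *Krt15* and *Krt14* on chromosome 11 and the 7 type II genes on chromosome 15. *Krt1* (chr15:101845426-101850786) lies between *Krt2* (chr15:101810689-101818956) and *Krt77* (chr15:101858731-101869706), 26469 bases from the first and 7944 bases from the second. In *Supt6*-KO skin *Krt1* rose while the keratin genes on both sides fell. *Krt5* (chr15:101707069-101712905), which fell, lies 12763 bases from *Krt6a*, which rose. On chromosome 11, *Krt14* (chr11:100203162-100207510) and *Krt15* (chr11:100131759-100135949) lie in 1 stretch with *Krt19* and *Krt9* between them. Coordinates are those of RefSeq genes on GRCm38.p6. Over both clusters, 10 of 52 tested keratins were higher and 32 were lower, against 34.1% and 36.8% of all genes. Of the lower ones, 22 were hair follicle keratins, whose summed level ran from 25.7 to 2586 CPM among control mice.

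**Figure D4:**
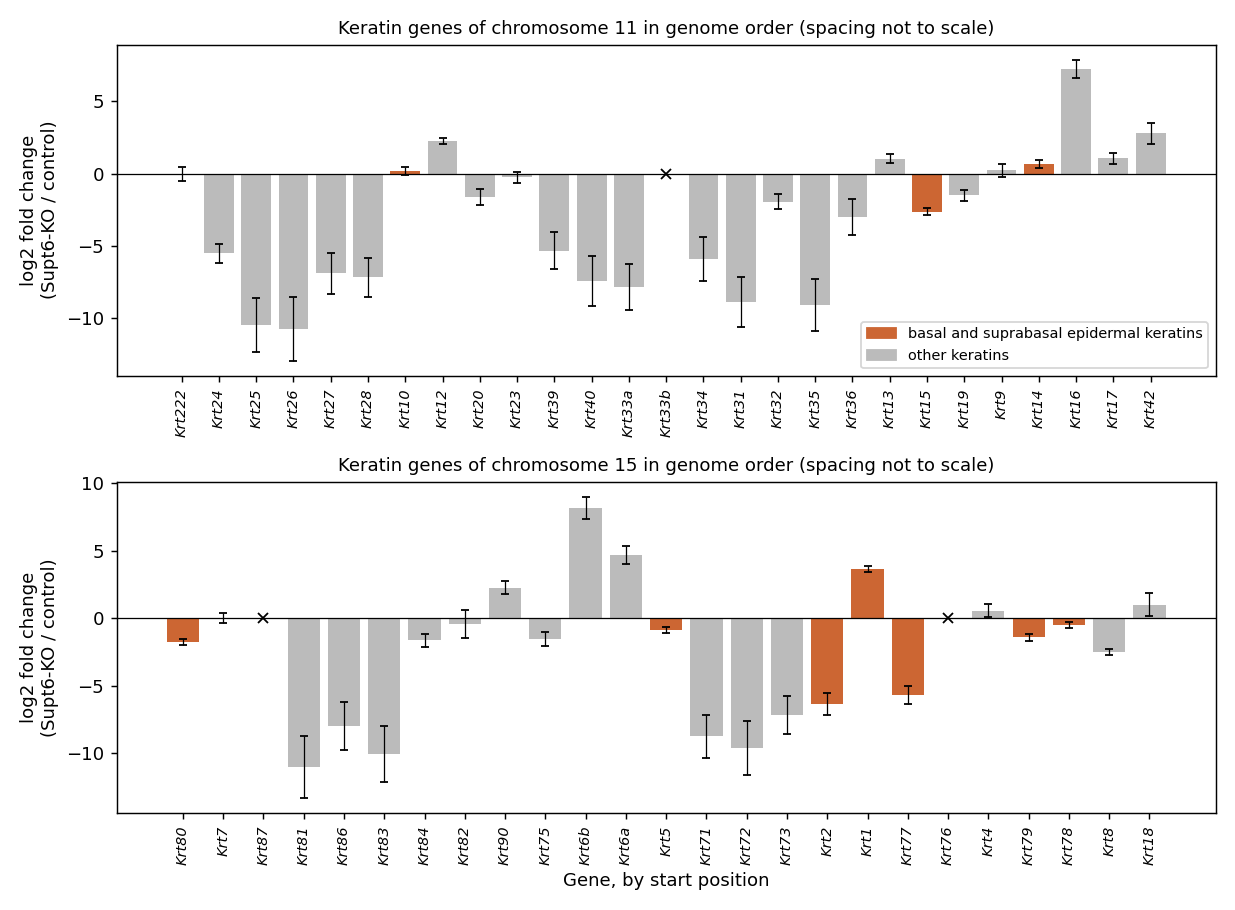
Log2 fold change (*Supt6*-KO against control, bars with SE) of each tested keratin gene in genome order on chromosomes 11 and 15, with the 10 epidermal keratins in orange; crosses mark genes at 0 counts in every mouse of a group, for which no fold is drawn, and several hair keratins rest on few counts in *Supt6*-KO mice. *Krt1*, at 3.65, stands between *Krt2* at -6.35 and *Krt77* at -5.65.

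The other keratin families were read for comparison. Of 23 tested hair follicle keratins, 22 were lower and 0 were higher, with a median log2 fold change of -7.86. *Krt87* and *Krt33b* were at 0 in all *Supt6*-KO mice, and *Krt81* fell from 29.9 ± 41.5 to 0.0104 ± 0.0209 CPM. Control mice stood apart from each other here, since the summed level of these genes was 2586, 255, 903, 498 and 25.7 CPM in mice 1 to 5 and 18.9 to 38.7 CPM in *Supt6*-KO mice. Control mouse 5 fell within the *Supt6*-KO range, and the part of hair follicle content in the other results was not tested. Of 5 simple epithelial keratins, 3 were lower (*Krt8*, -2.46; *Krt20*, -1.61; *Krt19*, -1.49 on the log2 scale), with group means under 6 CPM. Of 9 other keratins, *Krt12*, *Krt13*, *Krt90* and *Krt76* were higher and *Krt24* was lower. Apart from *Krt24*, none of these exceeded 4 CPM in either group's mean. *Krt42*, which is in none of these lists, was also higher, by 2.77 on the log2 scale (edgeR, adjusted p = 0.0049). Its mean was 0.302 CPM in control mice and 2.05 CPM in *Supt6*-KO mice. It is counted among the 52 tested keratins of both clusters.

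Genes that attach keratin filaments to desmosomes and hemidesmosomes were lower in 11 of 13 cases and higher in 1, with a median log2 fold change of -1.37. The largest falls were of *Plec* (-3.02), *Itgb4* (-2.69) and *Dst* (-2.57), which encode the plakin and integrin parts of hemidesmosomes. Removing the length trend moved *Supt6*, of 6488 bases, from -1.57 to -0.75 on the log2 scale. The part of transcript length in the gene lists was not tested. *Perp*, which encodes a desmosomal membrane protein, rose with a log2 fold change of 1.55, and *Pkp3* stayed at -0.02 without passing. The basal companions, genes of adhesion, growth signalling and transcription in the layer that expresses *Krt5*, were lower in 8 of 10 cases and higher in 0. *Igfbp5* (-3.87), *Col17a1* (-2.45) and *Lamb3* (-2.17) led that list, whose median was -1.37.

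Companions of *Krt1* and *Krt10* in the spinous and granular layers were higher in 9 of 12 cases and lower in 2, with a median log2 fold change of 1.43. With library totals in place of TMM, 6 were higher and 3 lower, and the median was 0.73. *Calm4* rose by 3.54, *Casp14* by 3.51 and *Ivl*, a precursor of the cornified envelope, by 1.99. *Lor*, the main cornified envelope protein gene of the granular layer, had a log2 fold change of -1.23 and *Tgm3* one of -0.61. The summed level of this list was 12177.4 to 14767.1 CPM in control mice, 53272.0 to 64210.4 CPM in *Supt6*-KO mice 1 to 3, and 21810.2 CPM in mouse 4.

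Of 17 regulators known to act on epidermal keratin genes, all transcription factors except the receptor gene *Notch1*, 11 were lower and 3 were higher, with a median log2 fold change of -0.54. The largest falls were of *Pou2f3* (-1.46), *Pou3f1* (-1.32) and *Trp63* (-1.21), the last encoding p63, which maintains the basal state and acts on *Krt5* and *Krt14*. The higher genes were *Ovol1* (0.86), *Ehf* (0.53) and *Hes1* (0.43). With library totals in place of TMM, which lowers the median of all genes from -0.07 to -0.76 on the log2 scale, none of the 17 was called higher and 13 were called lower. Over all genes, the share of calls that were higher dropped from 48.1% to 23.6% under that scaling.

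Markers of other skin components moved as well, and their part in the keratin results was not tested. Skeletal muscle markers were lower in 5 of 6 cases, from a summed 3492 to 4628 CPM in control mice to 738 to 1212 CPM in *Supt6*-KO mice, with *Acta1* the most abundant. Cartilage markers, led by *Acan*, were lower in 5 of 5 tested, from 226 to 584 CPM to 33.5 to 39.1 CPM, and *Matn1* did not pass the filter. Both lists were thus above 0 in every mouse and did not overlap between groups, as for *Krt2*. Since *Krt2* varies with body site and the sources name 2 sites, cartilage stands beside it here as a measured value.

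Dermal fibroblast markers were lower in 5 of 8 cases, at a summed 2982 to 10691 CPM in control mice and 1997 to 3844 CPM in *Supt6*-KO mice, with *Col3a1* the most abundant. Infundibulum and sebaceous gland markers, which bear on *Krt79*, were lower in 5 of 8 cases and higher in 2, with *Scd1* falling from 5837 to 863 CPM and the sum from 6193 to 7477 CPM to 1712 to 2057 CPM. Follicle stem cell markers, which bear on *Krt15*, were lower in 6 of 6 cases, from 147 to 252 CPM to 94.3 to 105 CPM, led by *Cd34*. Hair shaft and inner root sheath markers were lower in 6 of 7 tested, with *Krt71* the most abundant, and summed to 23.4 to 1798 CPM in control mice and 19.0 to 75.6 CPM in *Supt6*-KO mice. With scaling by library totals, 8 of the fibroblast markers were lower, and 5 of the infundibulum and sebaceous markers were lower and 0 higher. The lists are not separate from those above, since *Krt17* is also a stress keratin and 5 of the 7 hair shaft and root sheath markers are also hair follicle keratins.

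Neutrophil markers were higher in 5 of 6 cases, and the summed level went from 13.9 to 42.7 CPM in control mice to 4559.8, 5157, 6395 and 2512 CPM in *Supt6*-KO mice 1 to 4. Nearly all of it came from *S100a9* and *S100a8*, which stressed keratinocytes also express and which stood at 2715 and 1919 CPM in *Supt6*-KO mice. Of the other markers, *Csf3r* rose from 0.496 to 8.47 CPM, *Cxcr2* from 6.00 to 13.4 CPM and *Ly6g* from 0.00548 to 0.222 CPM, while *Mpo* fell from 0.354 to 0.0104 CPM. *Ly6g* and *Mpo* were thus near 0 in both groups. Mouse 4 had the lowest sum here and the highest stress keratins. Melanocyte markers were higher in 5 of 6 cases (47.2 to 65.6 against 100.2 to 178 CPM, led by *Dct*; 3 with library totals), and adipocyte markers lower in 4 of 6 (224 to 411 against 278 to 424 CPM, led by *Fabp4*). Macrophage and Langerhans cell markers were higher in 3 and lower in 2 of 6, summed 124 to 156 against 85.4 to 102 CPM, with the Langerhans cell gene *Cd207* the most abundant. Scaled by library totals, that list had 0 higher and 3 lower genes. Eccrine and duct markers, which bear on *Krt77* and of which 4 of 5 tested are also simple epithelial keratins, were higher in 1 and lower in 2 of 5 tested, with *Aqp5* rising from 0.608 to 46.5 CPM while *Krt77* fell, and *Foxa1* did not pass the filter.

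The genes most like each of 3 keratins across the 9 mice were sought by Pearson correlation of log2 CPM over 9528 genes with a mean of at least 10 CPM. For *Krt1* these were *Lce3c*, *Klk9*, *Lce3d*, *Lce3f* and *Fetub* (r = 0.996 to 0.997), genes that include late cornified envelope proteins and rose by 3.82 to 8.39 on the log2 scale. For *Krt14* they were *Vdac2*, *Bop1*, *Bub3*, *Tox4* and *Nop9* (r = 0.986 to 0.989), and for *Krt10* *Lnx1*, *Nt5c2*, *Heca*, *Mospd2* and *Ctnnbip1* (r = 0.967 to 0.986). The points share libraries and scaling. The r for *Krt1* spans the gap between groups, and 4 of its 5 genes, all but *Klk9*, averaged under 4 CPM in control mice and passed the filter through the *Supt6*-KO mice alone. The genes like *Krt14* and *Krt10* had log2 fold changes of 0.06 to 0.67. Both keratins had 1 value far from the rest, in *Supt6*-KO mouse 4 (*Krt14* at 9613 and *Krt10* at 7775 CPM). How far their r rests on that mouse was not tested.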

How the data were processed

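Libraries were made from total skin RNA of 5 control and 4 *Supt6*-KO mice. Per the labels' processing notes, the tools used upstream were HISAT, Bowtie2 2.3.4.3 and RSEM 1.3.1 with mm10. The authors deposited RSEM estimated counts per gene, not normalized between mice, in which reads that match several genes are divided among them. About 9.0% of the estimated counts were not whole (tolerance 1e-06), and all were rounded. The authors deposited TPM values for 6 mice, and these TPM values served only to recover effective lengths. Strand use is not given in the sources used here.

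Genes with under 10 counts in total were left out. edgeR 4.0.16 (R 4.3.3) quasi-likelihood tests used TMM factors, 2 groups and no covariates, with Benjamini-Hochberg adjustment over 16426 genes and a threshold of 0.05. Ratios of counts, with 0.5 added, were compared by a two-sided exact permutation test. Levels were divided by the length of the longest protein-coding GENCODE transcript. CPM values are TMM-scaled, errors are SD over mice unless named SE, and a count of 0 allows up to 3 counts, counting error only. On simulated counts with the group sizes of this comparison, edgeR recovered 84.3% of 2-fold and 100% of 4-fold changes and called 3 unchanged genes among 16449 tested. Only 102 genes were changed 2-fold and 98 were changed 4-fold there. All genes had the same spread setting, and no scaling shift was put between groups. In the real data most genes were called, so these rates do not carry over to them.

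The genes named were *Supt6*, the 10 keratins, up to 3 higher and 3 lower genes of each keratin-related list by size of change (all of a list of up to 4), the most abundant gene of each marker list and genes at 0, and 5 genes most like each of 3 keratins. A few were named beyond this rule after their values were seen (*Pkp3*, *Krt13*, *Krt42*, *Notch1*, *Krt19* and *Krt9* as neighbours, the other neutrophil markers, *Matn1*, *Foxa1*). The keratins and all lists were chosen with earlier results of these data known. Alternatives were DESeq2 1.42.0, 3 other scalings, 2 other filters, a fit blocked on replicate number, removal of the length trend, each mouse left out and scaling factors made without the 50 most abundant genes. Tables were made with Python 3.11.15 and pandas 2.3.3.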

Additional observations from a re-analysis of the deposited data

Results flagged for a closer look

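In 3 of 50 groups of values examined, 1 mouse lay farther from the others than Dixon's 95% limit allows, where chance gives about 1 group in 20. All 3 were *Supt6*-KO mouse 4. Its *Krt10* level was 7775 CPM against a group median of 18892 CPM. Its share of the 10-keratin pool was 39.7% for *Krt14* against a median of 14.1%, and 0.106% for *Krt78* against 0.162%. Without that mouse, 2 keratins were called higher (*Krt1* and *Krt10*) and 6 lower. Its part in the results was not tested beyond leaving it out.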

How the results depend on the processing

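*Supt6*, *Krt5*, *Krt15*, *Krt1*, *Krt2*, *Krt77*, *Krt79* and *Krt80* kept their direction and their side of the threshold under all 18 alternatives. The log2 fold change of *Supt6* was -2.26 with library totals and -0.75 with the length trend removed. *Krt10* reversed with library totals (-0.55). The number of keratins called higher was 2 with DESeq2 and with median-ratio size factors, and 1 to 2 with each mouse left out (2 without *Supt6*-KO mouse 2, by *Krt14*, and without mouse 4, by *Krt10*). The number of genes called higher was 2771 with library totals against 5608. *Krt78* passed with library totals (-1.21), upper-quartile factors (-0.56), at least 10 counts in every mouse (-0.53), and without control mouse 2, control mouse 3 or *Supt6*-KO mouse 1. With medians in place of means, the log2 difference in the *Krt1* to *Krt10* ratio was 3.36 (exact permutation test, adjusted p = 0.074) and in *Krt1* to *Krt5* 4.80 (exact permutation test, adjusted p = 0.067); the cause was not tested. Without division by length, the type II to type I balance was 0.902 in control and 0.615 in *Supt6*-KO mice. Effective lengths from deposited TPM, added after seeing the data, gave 0.674 and 0.480. With the replicate block, 1 keratin was higher and 6 lower, with log2 fold changes of 3.52 for *Krt1* and -6.96 for *Krt2* and no changed call. Correlations of deviations ran from 0.003 to 0.324 in same-numbered pairs (mean 0.168, 3 of 4 over 0.1) and averaged -0.036 in other pairs. As 1 pair was under 0.1 and only 1 of 4 *Supt6*-KO mice correlated best with its own number, the numbers were not treated as a pairing. The block gave 5271 genes higher and 5803 lower. With 4 *Supt6*-KO mice, 1 mouse can decide *Krt14* or *Krt10*.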

Other observations

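The summed share of the type II keratins *Krt1*, *Krt2* and *Krt77* in the 10-keratin pool, a sum chosen after their values were seen, was 24.9% to 28.3% in control mice and 28.4%, 25.3%, 26.9% and 20.8% in *Supt6*-KO mice 1 to 4. The groups overlapped, although within this sum *Krt2* gave the most in every control mouse and *Krt1* in every *Supt6*-KO mouse. Relative to *Krt10*, the same sum per transcript length was 0.634 to 0.717 in control mice and 0.584, 0.446, 0.523 and 0.799 in *Supt6*-KO mice.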
